A study of Mus musculus with 12 samples.

Results

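Genes of the lysosome were followed in the annulus fibrosus (AF) and the nucleus pulposus (NP) of the mouse intervertebral disc. The list held 48 genes chosen by symbol: subunits of the vacuolar proton pump, acid hydrolases, lysosomal membrane glycoproteins, cholesterol carriers, a tagging enzyme and the regulator Tfeb. A probe set was found for 45 of them, among 19505 genes with a symbol on the array. Atp6v0c, Ctsd and Glb1 were not analysed here. Each of the 45 had a single probe set, and all 45 were above background on at least 3 of 12 arrays, 29 of them on every array.

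The series measured RNA on Clariom S Mouse arrays in lumbar discs of 12-month-old C57BL/6 mice. The 4 groups, with 3 arrays each, were AF of wild-type (WT) mice, AF of TonEBP haploinsufficient mice (written TonEBP +/-), NP of WT mice and NP of TonEBP +/- mice. No treatment was applied, and a sample held tissue pooled from the discs of 1 animal, per the labels. The labels name no tissue-specific deletion, so the loss is not limited to disc cells. Nfat5, which encodes TonEBP, was 0.09 log2 higher in TonEBP +/- than in WT in AF (adjusted p = 0.923) and 0.50 higher in NP (adjusted p = 1), neither passing. Whether its probes lie in the lost part of the gene is not known here, so this is no sure check of the genotype labels.

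Lysosomes break down proteins, glycans and lipids at acid pH. The pump has a membrane sector, V0, through which protons pass, and a cytosolic sector, V1, which binds and hydrolyses ATP. Hydrolases reach the lysosome by a mannose 6-phosphate tag, and TFEB and related factors bind a short promoter element, the CLEAR element, in many lysosomal genes. In the disc, lysosomal sulfatases and glycosidases degrade the chains of proteoglycans such as aggrecan. Osteoclasts, which resorb bone next to the disc, move the same pump to the cell surface.

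The promoters show which members carry the core of the CLEAR element, and they are given here because the members were grouped by function and not by regulation. The letters GTCACGTG, the core of the CLEAR element, were searched on both strands of the RefSeq promoter windows of GRCm38.p6, from 250 bases before to 50 bases after each start. Of the 48 member genes, 39 had a window (48 windows in all) and 9 had none. The core stood in 20.8% of member windows and in 2.25% of all 32851 windows. The shorter CACGTG, which lies inside it, stood in 29.2% and 7.15%. The 8 measured members with the core were Atp6v0b, Atp6v0d1, Ctsa, Gla, Lamp1, Lgmn, Naglu and Sgsh. Stretches of 30 bases around it follow, 5′ to 3′ on the gene's strand, with the core in capitals as read on that strand.
Atp6v0b, chr4:117887349-117887378, minus strand: tgtgcgcggggGTCACGTGgggtcggcgca
Atp6v0d1, chr8:105566051-105566080, minus strand: gccctactgcgGTCACGTGagacgcggtgc
Ctsa, chr2:164833748-164833777, plus strand: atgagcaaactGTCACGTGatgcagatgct
Ctsa, chr2:164833767-164833796, plus strand: atgcagatgctCACGTGACcagagctacac
Gla, chrX:134601183-134601212, minus strand: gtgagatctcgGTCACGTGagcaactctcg
Lamp1, chr8:13159122-13159151, plus strand: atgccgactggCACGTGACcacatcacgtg
Lgmn, chr12:102439125-102439154, minus strand: atggaatgtctGTCACGTGgtccattttat
Naglu, chr11:101070008-101070037, plus strand: ccaaccttcagGTCACGTGgcccgaggtcg
Sgsh, chr11:119355521-119355550, minus strand: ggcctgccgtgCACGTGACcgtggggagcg
The core of Lgmn lay 51 bases before the start of one of its 2 windows, and that of Gla 196 bases before its start. A match is a description of letters, not a site shown to be bound. Which of these genes changed in the tissues is given with the results.

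Values are the deposited log2 signals, on which a difference of 1 is a doubling. Medians of the AF arrays ran from 7.43 to 7.64 and those of the NP arrays from 6.82 to 6.87. Interquartile ranges ran from 2.36 to 3.11 among AF arrays, with array 3 of TonEBP +/- the widest, and from 3.61 to 3.80 among NP arrays. A probe set was taken as above background where it passed the 95th percentile of the array's background probe sets, at 7.11 to 7.98. With 3 arrays in a group, precision is limited by their number.

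**Figure D1:**
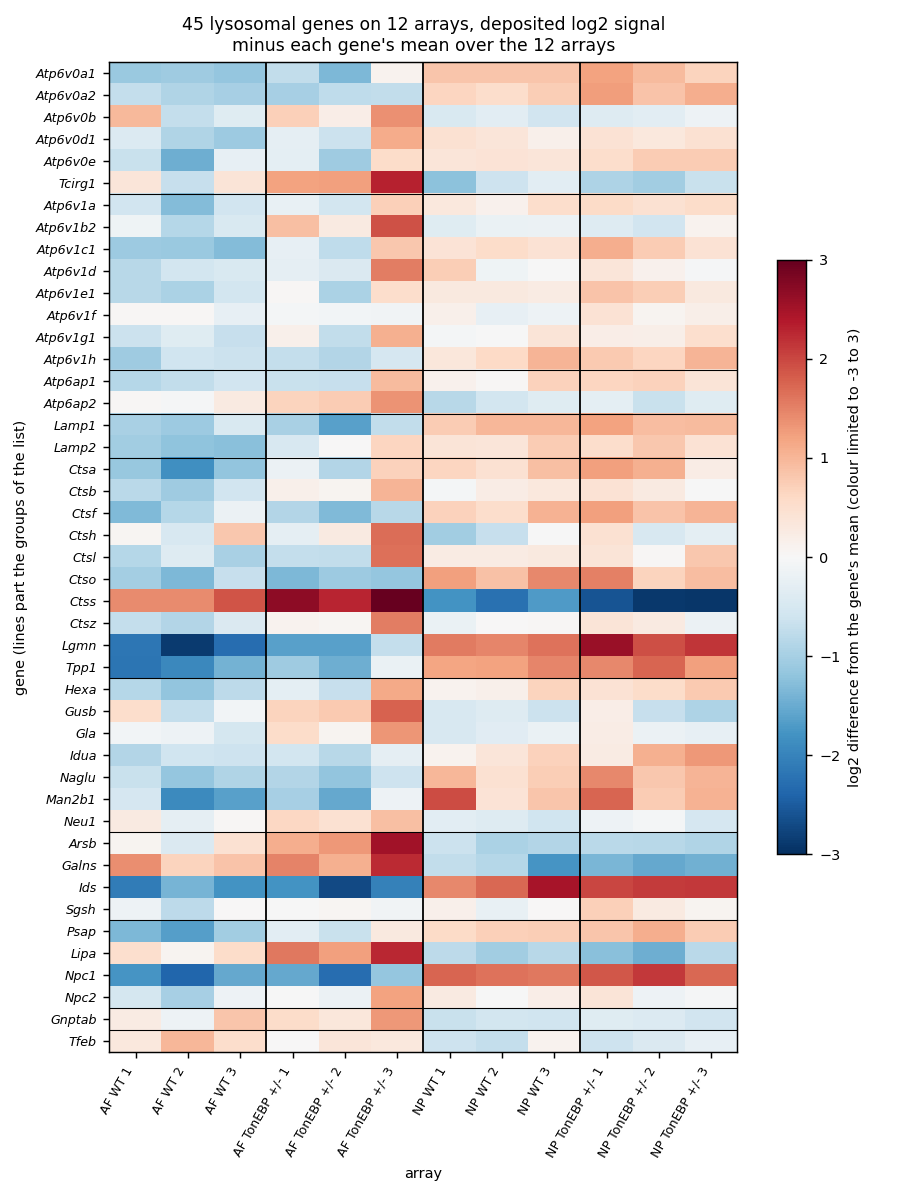
Each row is 1 of the 45 measured members and each column 1 of the 12 arrays; colour gives the deposited log2 signal minus the gene's mean over all arrays, limited to 3 either way, and lines part the groups of genes and of arrays. AF array 3 of TonEBP +/- is the warmest AF column, being the highest AF array for 37 of 45 members, and Ids, Lgmn, Npc1 and Tpp1 are blue in AF and red in NP.

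In AF of TonEBP +/- mice, 11 of 45 members were called higher than in WT and 0 lower. They were pump subunits (Tcirg1, Atp6v1b2 and Atp6ap2), proteases (Ctss, Ctsz, Ctsb and Lgmn), the sulfatase Arsb, the membrane glycoprotein Lamp2, and the lipid handling genes Lipa and Psap. Changes of these 11 ran from 0.84 to 1.60 log2, or 1.79- to 3.02-fold (limma, adjusted p under 0.05, n = 3 per genotype). Of all 22206 clusters, 6.07% were called, 2.76% higher and 3.31% lower, and among those above background on at least 3 arrays 4.72% were higher and 4.89% lower. No member was called when AF array 3 of TonEBP +/- or AF array 2 of WT was left out, or when only the 6 AF arrays were fitted. Few clusters of any kind were called in those fits, 0.365%, 0.869% and 0.0135% of all. The SEs and p-values given here rest on 1 spread per gene, shared by AF and NP arrays. Correlations between arrays of a group were 0.942 to 0.976 in AF and 0.985 to 0.988 in NP. Where AF arrays vary more, the SEs and p-values can be too small for AF and too large for NP.

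The membrane sector of the pump was represented by 6 measured genes, and 1 was called. Tcirg1, the a3 subunit that serves the pump of osteoclasts, was at 10.29, 9.24 and 10.33 in AF of WT and at 11.14, 11.16 and 12.23 in TonEBP +/-. The groups did not overlap, with WT array 2 lowest and TonEBP +/- array 3 highest, and the difference was 1.56 log2 (SE 0.35, adjusted p = 0.0237). The other V0 genes had differences above 0 that were not called, down to 0.03 in the lowest. Atp6v0a2, an a subunit of intracellular pumps, lay at 7.76 to 8.04 in WT and 7.75 to 8.01 in TonEBP +/-, with full overlap.

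Of the 8 V1 genes, 1 was called. Atp6v1b2, a B subunit of the nucleotide-binding ring, was at 10.60, 9.86 and 10.25 in WT and at 11.61, 10.98 and 12.61 in TonEBP +/-. All TonEBP +/- arrays lay above all WT arrays, and the difference was 1.50 (SE 0.34, adjusted p = 0.0243). The groups did not overlap in 4 of the 8 V1 genes, Atp6v1b2 among them, and differences ran from -0.03 in Atp6v1f, the F subunit of the stalk, upward. Of the 2 accessory subunits, Atp6ap2, also known as the prorenin receptor, was called, with 11.35, 11.28 and 11.58 in WT and 12.00, 12.08 and 12.67 in TonEBP +/-. Its difference of 0.84 (SE 0.24, adjusted p = 0.0495) was the smallest of the 11.

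Proteases made up 4 of the 11 called members, of 10 measured. Ctss, a cysteine protease of antigen-presenting cells, was at 10.53, 10.52 and 10.98 in WT and at 11.79, 11.39 and 13.52 in TonEBP +/-. The arrays of TonEBP +/- spread over more than 2 log2 here, array 3 standing highest, and the difference was 1.56 (SE 0.40, adjusted p = 0.0339). The SD of Ctss was 0.26 in AF of WT and 1.13 in AF of TonEBP +/-, which the shared spread does not reflect. Ctsb, a broadly expressed cysteine protease, was at 14.24, 13.97 and 14.48 in WT and at 15.21, 15.14 and 16.07 in TonEBP +/-. Its groups did not overlap, and the difference was 1.24 (SE 0.27, adjusted p = 0.0219). Ctsz, a carboxypeptidase, differed by 1.24 as well (SE 0.33, adjusted p = 0.0388), and Lgmn, the asparaginyl endopeptidase that matures other cathepsins, by 1.12 (SE 0.29, adjusted p = 0.0334). Ctsf and Ctso, further cysteine cathepsins, had differences of -0.23 and -0.18 that were not called.

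Among enzymes of glycan breakdown, 1 of 4 sulfatases and 0 of 7 glycosidases were called. Arsb removes sulfate from dermatan and chondroitin sulfate. It was at 10.37, 9.86 and 10.74 in WT and at 11.37, 11.59 and 12.80 in TonEBP +/-. The groups were apart, and its difference of 1.60 (SE 0.32, adjusted p = 0.0176) was the largest among the members. Ids, which acts on dermatan and heparan sulfate, had a difference of -0.41 that was not called. Sgsh, an enzyme of heparan sulfate breakdown, was not well above background on any AF array, so no change is given for it. All 7 glycosidases had differences above 0, from 0.02 to 1.16, and the groups did not overlap in 4 of them.

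The membrane and lipid genes gave the remaining calls. Lamp2, a glycoprotein of the lysosomal membrane, was at 15.02, 14.86 and 14.80 in WT and at 15.58, 16.08 and 16.70 in TonEBP +/-, a difference of 1.23 (SE 0.27, adjusted p = 0.0219). Its partner Lamp1 had a difference of -0.27 that was not called (adjusted p = 0.567), with overlapping groups. Lipa, the acid lipase that frees cholesterol and fatty acids, was at 8.11, 7.69 and 8.15 in WT and at 9.18, 8.85 and 9.87 in TonEBP +/-. The groups were apart, by 1.32 (SE 0.27, adjusted p = 0.0202). Psap, the precursor of the saposins that present lipids to hydrolases, differed by 1.12 (SE 0.26, adjusted p = 0.0254). Npc1, which exports cholesterol from the lysosome, was not well above background on any AF array.

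Tfeb, the regulator on the list, was not called. It was at 8.54, 9.22 and 8.73 in AF of WT and at 8.23, 8.57 and 8.53 in TonEBP +/-. The groups overlapped, and the difference was -0.39 (SE 0.26, adjusted p = 0.404). Gnptab, which makes the mannose 6-phosphate tag, had a difference of 0.42 that was not called (adjusted p = 0.392). Of the 9 called members with a promoter window, 1 held the CLEAR core, namely Lgmn, and so did 7 of the 27 measured members with a window that were not called.

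**Figure D2:**
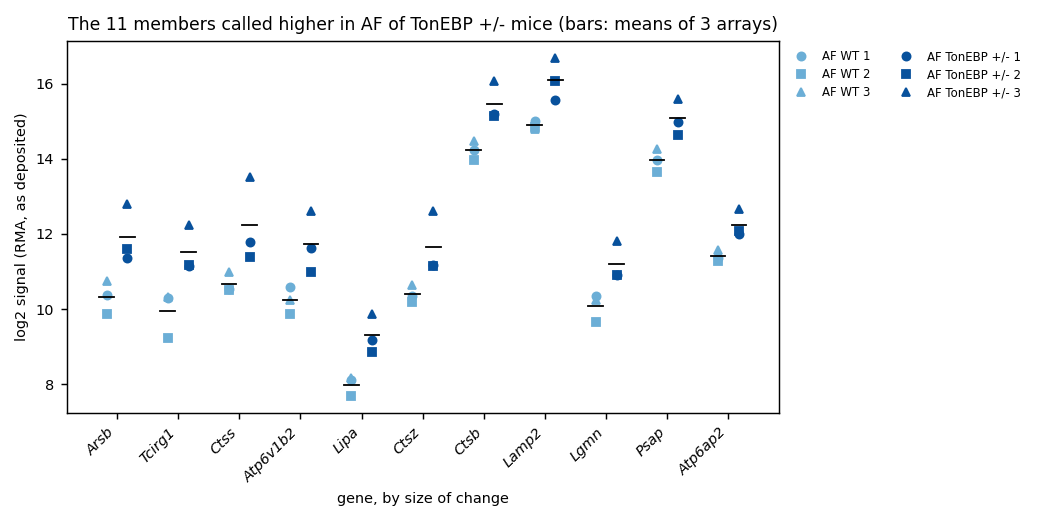
Points are the deposited log2 signals of the 6 AF arrays for the 11 members called higher in TonEBP +/- mice, light for WT and dark for TonEBP +/-, with circle, square and triangle for arrays 1, 2 and 3 and bars for means of 3 arrays. The genotypes do not overlap in any of the 11, and the dark triangle, TonEBP +/- array 3, is the highest point for each.

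Over the whole list, 39 of 45 differences in AF were above 0 and 6 below, against 46.4% above 0 among all clusters. The median was 0.80, against -0.04 over all clusters and 0.12 over clusters above background on at least 3 arrays. The TonEBP +/- arrays lay entirely above the WT arrays for 19 members and entirely below for 0, where 10% and 12.3% of all clusters did so. At an unadjusted p under 0.05 there were 25 members, all higher, and 23.2% of all clusters.

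The count depended on single arrays. AF array 3 of TonEBP +/- was the highest of the 6 AF arrays for 37 of 45 members, and for 28.4% of all clusters. Without it, 34 differences were above 0 and 11 below, the median was 0.33 against -0.01 over all clusters, and 0 members were called, where 0.365% of clusters were. The 11 called members then had differences of 0.63 to 1.20 with adjusted p from 0.0666 to 0.205. Without AF array 2 of WT, 0 members and 0.869% of clusters were called. With array 2 of TonEBP +/- left out instead, 25 members were called, against 18.1% of clusters. Without array 1 of TonEBP +/- the count was 4, against 1.2% of clusters, and without WT arrays 1 and 3 it was 6 and 5, against 2.09% and 2.59%.

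**Figure D3:**
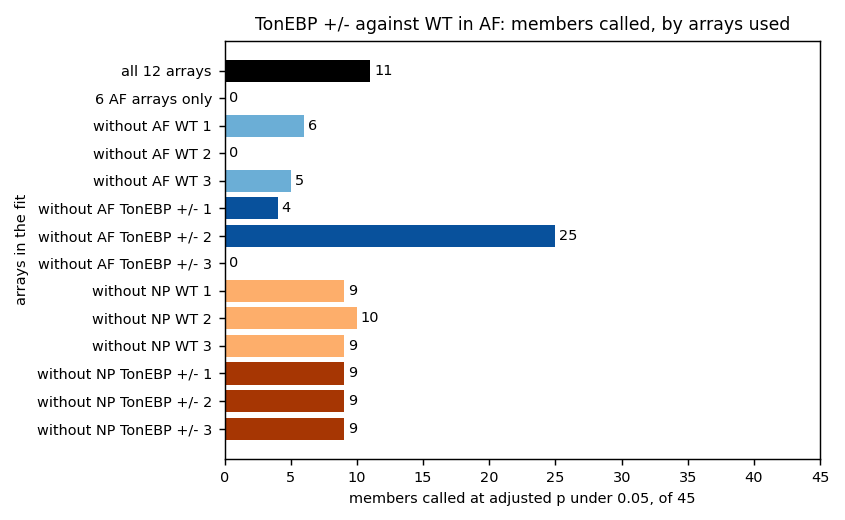
Bars give how many of the 45 members were called between genotypes in AF with all 12 arrays, with the 6 AF arrays alone, and with each array left out in turn; the colour shows the group of the array left out. The count is 11 with all arrays, 0 in 3 of the fits and 25 without TonEBP +/- array 2. The shares of all clusters called in these fits are 6.07%, 0.0135% to 0.869%, and 18.1%.

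Markers of some other cells moved with the members in AF, and those of others did not. The mean log2 signal of the 45 members was 9.68, 9.39 and 9.74 on the WT arrays and 10.1, 9.84 and 10.9 on the TonEBP +/- arrays. On WT arrays the mean of 11 osteoclast markers was 10.2, 8.76 and 9.77, and on TonEBP +/- arrays 10.8, 10.4 and 11.7. Both means were lowest on WT array 2 and highest on TonEBP +/- array 3. Of the 11 markers, 3 were called higher (Acp5, Ctsk and Atp6v0d2) and 0 lower. Mmp9, Itgb3, Car2 and Nfatc1 were not called, and Calcr, Ocstamp, Dcstamp and Oscar were not well above background in either AF group. The median change over the 11 was 0.50 and the mean 1.40. The 3 called genes are also lysosomal or pump genes, so the marker mean is not independent of the pathway. Ctsk, the collagen-degrading cathepsin of osteoclasts, was at 11.88, 7.18 and 10.74 in WT and at 12.92, 12.95 and 14.78 in TonEBP +/-.

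The mean of 14 macrophage markers was 7.90 to 8.24 in WT and 8.41 to 8.99 in TonEBP +/-, with Csf1r and Aif1 called higher and C1qc, Cd163, Cx3cr1 and Marco not well above background in either group. The mean of 14 neutrophil and myeloid precursor markers was 15.7 to 16.1 and 16.6 to 17.3, with 4 called higher (Prtn3, Ctsg, Camp and Cebpe). Of 7 measured osteoblast and mineralisation markers, 5 were called higher. Markers of the disc's own cells shifted too: of 12 AF and tendon markers 5 were called higher (Col1a1, Col1a2, Lum, Tnc and Postn) and 1 lower (Fmod), and of 10 cartilage markers 2 were lower (Acan and Sox9). Of 5 erythroid and 8 skeletal muscle markers measured, 0 were called, with mean changes of -0.12 and -0.24. Only 2 of the 8 muscle markers were above background on WT arrays of AF, and 0 to 1 on TonEBP +/- arrays. The muscle result therefore says little. Of 12 NP and notochord markers, 1 was called lower, with a mean change of -0.53 over the 12. Their mean was 10.7 on WT array 1, 9.59 and 9.60 on WT arrays 2 and 3, and 9.25 to 9.80 on TonEBP +/- arrays. The cartilage mean was 12.3 on WT array 1, 13.9 and 14.2 on WT arrays 2 and 3, and 12.0 to 13.1 on TonEBP +/- arrays. So WT array 1 stood apart from the other WT arrays in both lists. Of all clusters, 2.76% were called higher and 3.31% lower in AF. The part of all these cells in the members' differences was not tested. In bulk tissue, fewer cells of a type and less RNA per cell cannot be told apart.

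**Figure D4:**
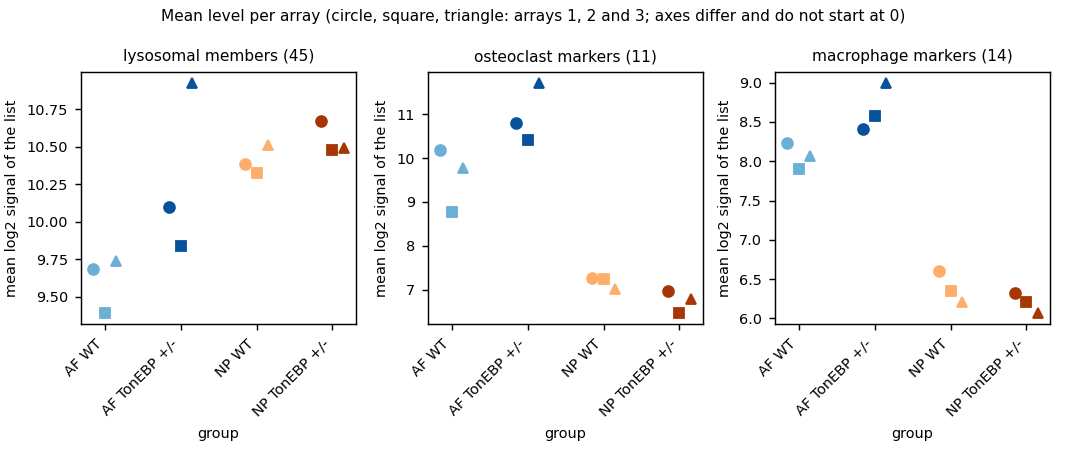
Points are the mean deposited log2 signal of the 45 members, of 11 osteoclast markers and of 14 macrophage markers on each array, by group, with circle, square and triangle for arrays 1, 2 and 3. In AF all 3 means are lowest on WT array 2 and highest on TonEBP +/- array 3; in NP the marker means are lower than in AF while the member means lie between 10.3 and 10.7.

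Genes of the same pathway outside the list were read the same way. Of 67 such genes, 59 were measured, and 9 were called higher and 0 lower in AF of TonEBP +/- mice. Of all clusters, 2.76% were called higher and 3.31% lower, and of those above background 4.72% and 4.89%. Whether these 9 calls hold with single arrays left out was not tested. Without AF array 3 of TonEBP +/-, 0.365% of all clusters were called. Of the 9, Acp5, the tartrate-resistant acid phosphatase, differed by 4.13, Ctsk by 3.62 and Atp6v0d2, a pump subunit of osteoclasts, by 3.45. These 3 genes also stand in the osteoclast list. The others were the proteases Ctsc (1.75) and Ctsg (1.38), the membrane proteins Cd63 (1.15), Laptm5 (1.86) and Cln3 (1.09), and the chloride transporter Clcn7. Clcn7 was not well above background in WT, so its difference is at least 0.69. The median over the 59 genes was 0.32. Sorting receptors, MiT factors with their mTORC1 partners, and cystatins had 0 called of 5, 7 and 4.

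In NP, 0 of 45 members were called between genotypes, in either direction, where 0.113% of all clusters were called, all of them lower (limma, n = 3 per genotype). The median member difference was 0.17, against 0.01 over all clusters, with 35 members above 0 (51% of all clusters) and 10 below. The TonEBP +/- arrays lay entirely above the WT arrays for 5 members and entirely below for 1, as 5.34% and 5.93% of all clusters did. At an unadjusted p under 0.05 there were 2 members, and 3.72% of all clusters. Settings that left out any array, changed the scaling or changed the variance model also gave 0 called members.

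The 4 members with the smallest p in NP did not pass. Lgmn was at 14.08, 14.01 and 14.15 in WT and at 15.13, 14.47 and 14.67 in TonEBP +/-. The groups were apart, and the difference was 0.67 (95% CI 0.07 to 1.28, adjusted p = 1). Ctss was at 7.30, 6.85 and 7.41 in WT and at 6.51, 6.21 and 6.18 in TonEBP +/-. It was above background on 1 of 3 WT arrays and on no TonEBP +/- array, so its difference of -0.88 is not a measured fold. Atp6v0a2 differed by 0.43 (95% CI -0.01 to 0.87) and Idua, which cleaves iduronic acid from dermatan and heparan sulfate, by 0.49 (95% CI -0.10 to 1.08).

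Tfeb in NP was at 7.59, 7.50 and 8.31 in WT and at 7.60, 7.78 and 7.98 in TonEBP +/-, a difference of -0.014 (95% CI -0.57 to 0.54). The groups overlapped. Galns and Lipa were not well above background on any NP array. The mean of the neutrophil and myeloid precursor markers was 11.2 to 12.6 in NP of WT and 8.82 to 10.5 in TonEBP +/-, and that of the macrophage markers 6.21 to 6.61 and 6.07 to 6.32, respectively. Of the other pathway genes, Ctse and Ctsg were called lower in NP of TonEBP +/- mice and 0 were called higher. Ctsg is a protease of neutrophil granules and stands in the neutrophil list.

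The difference between the tissues in the effect of genotype was tested as an interaction, the NP difference minus the AF difference. With it, 0 of 45 members passed, where 0.887% of clusters did, 0.766% lower and 0.122% higher. Values were below 0 for 32 members and above 0 for 13, with a median of -0.59 against 0.05 over all clusters. At an unadjusted p under 0.05 there were 11 members, all below 0, and 14% of all clusters. So the calls made in AF and not in NP do not show that the effect of genotype differed between the tissues.

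The members nearest to the threshold were Ctss (-2.44, 95% CI -3.64 to -1.24, adjusted p = 0.0537), Lipa (-1.60, -2.42 to -0.78, adjusted p = 0.0655), Arsb (-1.62, -2.59 to -0.65, adjusted p = 0.111) and Tcirg1 (-1.73, -2.78 to -0.68, adjusted p = 0.115). Ctss was above background on 1 of 6 NP arrays and Lipa on 0 of 6, so these sizes are not measured folds. Without AF array 2 of TonEBP +/-, 5 members passed, among them these 4, and 5.94% of clusters. Without AF array 3, Ctss alone passed (-1.80, adjusted p = 0.0378), and 0.383% of clusters.

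More members were called between the tissues than between the genotypes. With each array's median subtracted, NP of WT mice was above AF for 32 of 45 members and below it for 2, where 33.7% of all clusters were called higher and 31.3% lower, 65% in all (limma, n = 3 per tissue). Among clusters above background on at least 3 arrays, 53.9% were higher and 24.1% lower. The median member difference was 1.74, against -0.10 over all clusters and 0.84 over those above background. The split depended on the scaling, with 24 higher and 7 lower on the deposited values (22.2% and 56.1% of all clusters) and 23 and 9 after quantile normalization (27.1% and 27.3%). In TonEBP +/- mice the same comparison gave 25 higher and 6 lower (30.9% and 25.3% of all clusters, 56.2% in all, and 48.7% and 20.3% of those above background), with 18 and 13 on deposited values (20% and 54.4% of all clusters) and 14 and 12 after quantile normalization (24.7% and 24.2%).

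With medians subtracted, the NP arrays lay entirely above the AF arrays for 33 members in WT and 23 in TonEBP +/- (36.1% and 32.1% of all clusters) and entirely below for 3 and 6 (35.5% and 28.2%). Called under all 3 scalings and in both genotypes were 13 members higher in NP and 2 lower, where 15.7% and 13.3% of all clusters were. The share among clusters above background on at least 3 arrays, where all members lie, was not computed for this count. So no excess of the members is read from it. The 13 were the pump genes Atp6v0a1, Atp6v0a2 and Atp6v1h, Lamp1, the proteases Ctsf, Ctso, Lgmn and Tpp1, the glycan enzymes Idua, Ids, Naglu and Man2b1, and Npc1. The 2 lower ones were Ctss and Galns. The 2 genotypes use separate arrays, so each comparison has 6 arrays of its own, with 1 estimate of the spread shared by both.

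Among proteases, Lgmn had the largest difference in WT. Its deposited signal was 10.36, 9.65 and 10.25 in AF and 14.08, 14.01 and 14.15 in NP of WT. NP stood higher by 4.74 with medians subtracted (SE 0.30, adjusted p = 3.59e-09), 4.00 as deposited and 3.32 after quantile normalization. In TonEBP +/- mice it stood higher by 4.24. Tpp1, a tripeptidyl peptidase, was higher in NP by 3.87 in WT and by 3.08 in TonEBP +/- (2.31 and 1.67 after quantile normalization), and Ctso by 2.94 and 2.92. Ctsa, which protects Neu1 and beta-galactosidase as well as cleaving peptides, was higher by 2.79 in WT (1.48 after quantile normalization). Ctsf was higher by 2.74 in TonEBP +/-.

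Ctss went the other way. In AF it was at 10.52 to 10.98 in WT and 11.39 to 13.52 in TonEBP +/-, and in NP at 6.85 to 7.41 and 6.18 to 6.51. The difference in WT was -2.75 on median-subtracted values (SE 0.42), with 1 of 3 NP arrays above background. In TonEBP +/- it was at least 20.6-fold lower, since no NP array was above background there. The macrophage markers, among which Ctss is not listed, had means of 7.90 to 8.99 on AF arrays and of 6.07 to 6.61 on NP arrays. The part of such cells was not tested.

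The sulfatases were split. Ids was at 8.06, 8.77 and 8.37 in AF of WT and at 11.61, 11.87 and 12.62 in NP. The tissues did not overlap, and NP stood higher by 4.38 in WT (SE 0.30) and by 4.93 in TonEBP +/- (SE 0.30). Galns, which removes sulfate from keratan and chondroitin sulfate, was at 8.94, 8.21 and 8.42 in AF of WT and not well above background in NP of either genotype. It was at least 1.48-fold lower in NP of WT and at least 2.44-fold lower in TonEBP +/-. Arsb did not pass in WT with medians subtracted, but was lower in NP on deposited values (-0.87, adjusted p = 0.0221) and after quantile normalization (-1.26, adjusted p = 0.00175). In TonEBP +/- NP was lower by 3.47-fold (change -1.79), where the AF arrays of that genotype, array 3 above all, were high. Glycosidases gave 4 of 7 higher and 0 lower in each genotype with medians subtracted. Of clusters above background, 53.9% were called higher in WT and 48.7% in TonEBP +/-. In TonEBP +/- mice the other scalings gave 3 higher each, and called lower Gusb, Gla and Neu1 on deposited values and Gusb and Neu1 after quantile normalization. Man2b1, the acid alpha-mannosidase, was higher by 3.15 in WT and 2.77 in TonEBP +/- (1.79 and 1.55 after quantile normalization).

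Of the 4 lipid handling genes, 3 were called higher in NP of WT with medians subtracted, and in TonEBP +/- 2 were higher and 1 lower. Of clusters above background, 53.9% were called higher in WT and 48.7% in TonEBP +/-. Npc1 was at 7.02, 6.42 and 7.24 in AF of WT, all below background, and at 10.54, 10.42 and 10.38 in NP. It was at least 10.2-fold higher in NP of WT and at least 11.1-fold higher in TonEBP +/-. Psap was higher by 2.77 in WT (1.15 after quantile normalization). Npc2, which hands cholesterol to Npc1, was higher by 1.45 in WT (not called on deposited values, adjusted p = 0.0566) and not called in TonEBP +/- (0.41, adjusted p = 0.329). Lipa was not called in WT with medians subtracted (-0.53), but was lower on deposited values (adjusted p = 5.84e-04) and after quantile normalization (adjusted p = 0.0487), and was at least 2.69-fold lower in NP of TonEBP +/-.

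Pump subunits were mostly higher in NP with medians subtracted, and the counts moved with the scaling. With medians subtracted, 53.9% of clusters above background were called higher in WT and 48.7% in TonEBP +/-. Of all clusters, 22.2% and 20% were called higher on deposited values, and 27.1% and 24.7% after quantile normalization. In WT, 4 of 6 V0 genes, 8 of 8 V1 genes and 1 of 2 accessory genes were called higher and 0 lower, with V1 differences of 0.71 to 2.38. On deposited values the same counts were 4, 4 and 1, with Atp6ap2 lower. After quantile normalization they were 4, 4 and 0, with V1 differences of -0.28 to 1.65. Atp6v0a1 was at 11.33, 11.38 and 11.28 in AF and at 13.29, 13.27 and 13.28 in NP, 2.69 higher with medians subtracted and 1.09 after quantile normalization. In TonEBP +/- mice, 4 of 6, 5 of 8 and 1 of 2 were higher with medians subtracted, 3, 3 and 0 on deposited values, and 2, 1 and 0 after quantile normalization, where Atp6v1b2 was called lower (-1.75, -1.30 as deposited). Tcirg1, the osteoclast a3 form, was lower in NP of TonEBP +/- with medians subtracted (-1.77, SE 0.37), and so was Atp6ap2 (-0.68, SE 0.25, adjusted p = 0.0312). Atp6ap2 lost its call without AF array 3 of TonEBP +/- (-0.42, adjusted p = 0.131), without NP array 2 (-0.56, adjusted p = 0.116) and without NP array 3 of that genotype (-0.72, adjusted p = 0.0568). In WT neither gene was called with medians subtracted, but Atp6ap2 was called lower on deposited values (-0.67, adjusted p = 0.0192) and after quantile normalization (-1.34, adjusted p = 1.0e-04), and Tcirg1 after quantile normalization (-1.03, adjusted p = 0.0145). Lamp1 was higher in NP by 2.50 in WT and 2.83 in TonEBP +/- (0.93 and 1.40 after quantile normalization).

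**Figure D5:**
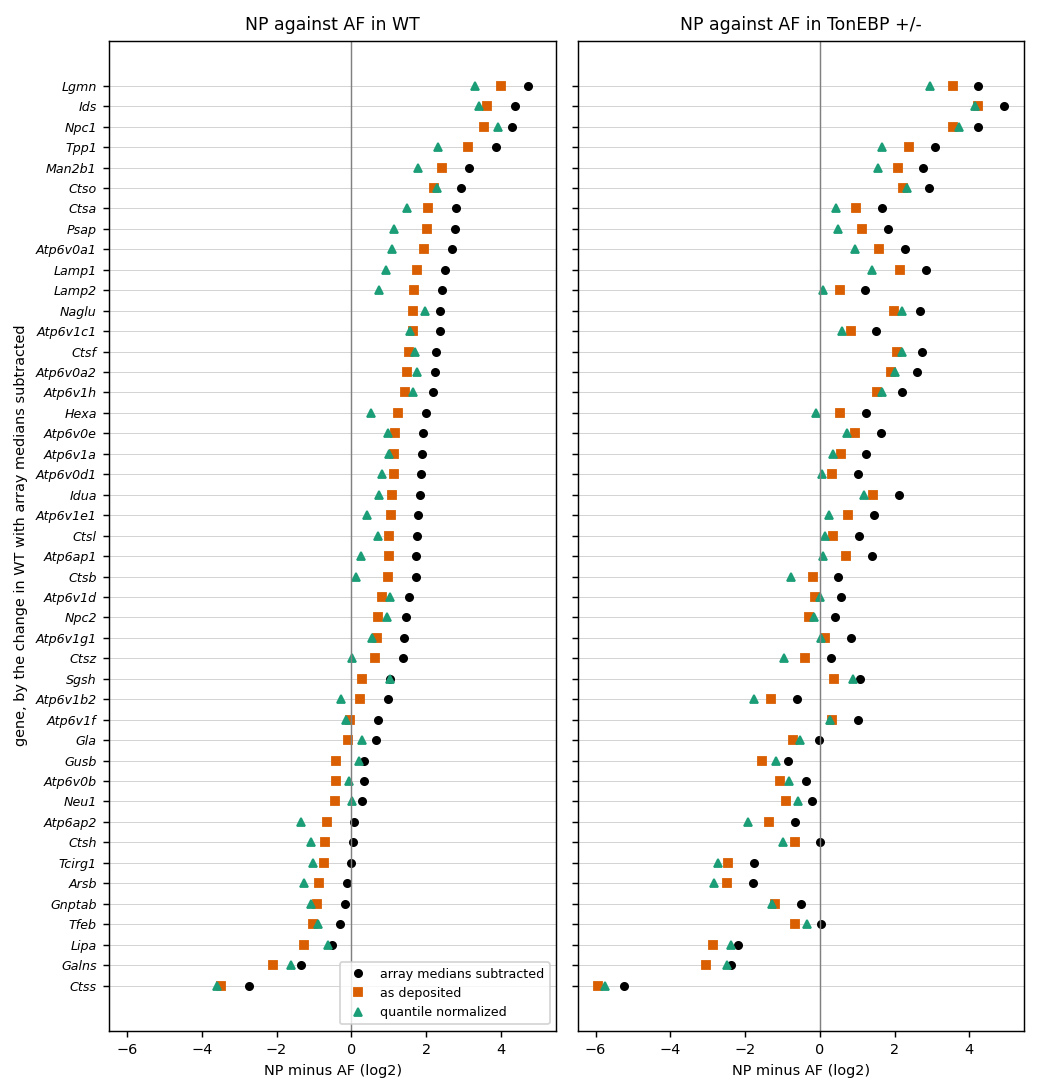
Each row is 1 member and the x axis its log2 difference, NP minus AF, in WT (left) and TonEBP +/- mice (right); circles use array medians subtracted, squares the deposited values and triangles quantile normalization. Lgmn, Ids, Npc1 and Tpp1 lie right of 0 and Ctss and Galns left of 0 under all 3 scalings, while members between them, such as Atp6v1b2 and Gusb, change side with the scaling in WT.

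Of the 59 measured pathway genes outside the list, 34 were called higher and 13 lower in NP of WT, 3 and 6 of them with both tissues not well above background. Of all clusters, 33.7% were called higher and 31.3% lower there, and of those above background 53.9% and 24.1%. The membrane proteins Scarb2 (4.03) and Laptm4a (3.72) and the mannose 6-phosphate receptor Igf2r (3.62) were higher, and so was Mitf, a factor related to TFEB, by at least 3.62. Acp5 was lower, with a difference of at most -3.40, and so was Laptm5, a membrane protein of blood cells (-3.40). In TonEBP +/- mice 30 were higher and 13 lower, 3 and 5 of them with both tissues not well above background. There 30.9% and 25.3% of all clusters were, and 48.7% and 20.3% of those above background. Of the NP and notochord markers, 10 of 12 were higher in NP of WT, and of the AF and tendon markers 7 of 12 were lower and 2, Scx and Fmod, higher. All 14 neutrophil and 5 erythroid markers measured were lower in NP of WT, and so were all 7 osteoblast and mineralisation, 9 of 14 macrophage, 7 of 11 osteoclast and 4 of 8 muscle markers, while the macrophage marker Csf1r was higher. These marker counts in WT stand beside the same 33.7% and 31.3% of all clusters. On WT arrays, 2 of the 8 muscle markers were above background in AF and 0 to 2 in NP. Of the 14 macrophage markers, 5 to 8 were above it in AF and 2 to 3 in NP. Of the 11 osteoclast markers, 5 to 7 were above it in AF and 4 in NP. So some of these calls can be for genes near background in both tissues. The part of the marked cells in the members' differences was not tested.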

How the data were processed

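RNA of 12 samples, 3 in each of 4 groups, was hybridized to Clariom S Mouse arrays. The authors deposited log2 signals, 1 per probe set and array; RMA (background correction, normalization and probe summary) and Affymetrix Expression Console were used per the submitters' processing notes, which give neither version nor settings. Which arrays were normalized together is not given in the sources used here. Of 28846 probe sets, 6640 controls were left out and 22206 transcript clusters tested; 2634 have no symbol here. Symbols came from the platform's gene table. The smallest SD of the difference between any pair of arrays was 0.414, so none was counted as a duplicate.

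A mean per group was fitted to all 12 arrays with limma 3.58.1 in R 4.3.3 (eBayes with no trend, 8 residual and 7.93 prior degrees of freedom). Benjamini-Hochberg adjustment ran over all clusters, and a call is an adjusted p under 0.05. Genotype comparisons used deposited values and tissue comparisons array medians subtracted. The labels give no batch and no animal number, so p-values measure the spread between these samples. The fit was tested on simulated data with normal noise of the same spread per gene in all 4 groups. That test does not cover a wider spread in AF or an outlying array. A group with no array above background is given as a bound against its background level.

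The members, gene lists and tests were chosen with earlier results of these data known. Named by rule were Tfeb and Nfat5 in each genotype comparison and up to 8 called members each way per comparison, or else the 4 with the smallest p. Other members, and all genes outside the list, were named after their values were seen. Alternatives were other scalings, a filter on dim clusters, other variance models, array weights, fewer arrays and each array left out. Promoters were read from the RefSeq table of GRCm38.p6 in Python 3.11.15 and figures drawn with matplotlib 3.10.9.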

Additional observations from a re-analysis of the deposited data

How the results depend on the processing

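Of the 5 counts of called members, that for genotype in AF moved most. From 11 it ran from 0 to 25 over omissions of single arrays (0 without AF array 3 of TonEBP +/- or AF array 2 of WT, 25 without AF array 2 of TonEBP +/-). It fell to 0 with the 6 AF arrays alone, where 0.0135% of all clusters were called, and was 24 with array weights. It was 12 with medians subtracted (5.75% of all clusters), 14 after quantile normalization (8.93%, against 6.07% for the 11), 13 with the filter and 10 with trend and robust prior. The interaction count of 0 became 1 after quantile normalization, with the filter and with trend and robust prior, 6 with array weights, and ran from 0 to 5 over omissions. The array weights did not converge, giving AF array 1 of TonEBP +/- a weight of 19.9, so those counts say little. The cause of these shifts was not tested. The count for genotype in NP stayed at 0 in every setting run, and both tissue counts stayed within 1.5 times, while their split into higher and lower moved with the scaling. The NP difference of Tfeb, -0.014, turned to 0.027 with medians subtracted and ran from -0.16 to 0.24 over omissions, being 0.24 without NP array 3 of WT and 0.081 without NP array 1 of TonEBP +/-. No member has several clusters, so averaging them gave no value. No paired analysis was possible because the labels give no replicate number and tie no AF sample to an NP sample. With 3 arrays per group, and members of low signal near background, small differences were not detectable.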
